A study of Mus musculus with 5 samples.

Results

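Mature migratory dendritic cells (mDC) were picked out of 5 single-cell RNA sequencing libraries of whole mouse kidney by a rule on raw counts of unique molecular identifiers (UMIs, one per captured RNA molecule). A barcode was kept when at most 30% of its UMIs came from mitochondrial genes and at least 200 genes were detected. It was then called an mDC when it held at least 3 UMIs of Fscn1, at least 2 of Ccr7 and Ccl22 together, at least 5 of H2-Aa, at most 1 of Cd3e, Cd3d and Cd3g together and at most 3 of C1qa, C1qb and C1qc together. The members were thus chosen by the UMI counts of these 10 genes, whose values are given as a description and were not tested. The rule found 151 mDC among 60043 kept cells, of 72896 deposited barcodes.

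The kidneys came from wild-type C57BL/6 males, 8 to 10 weeks of age. Aristolochic acid I (AAI), a plant nephrotoxin taken up by the proximal tubule, was injected into the peritoneum at 3 mg/kg every 3 days over 2 weeks, giving the acute kidney injury group (AKI, 2 libraries), and the chronic kidney disease group (CKD, 2 libraries) was taken after a further 2 weeks without the agent. A single library from a vehicle-treated mouse kidney served as control. All groups shared strain, sex and the enzymatic digestion of the whole kidney with collagenase IV and DNase I. The libraries are called control, AKI 1, AKI 2, CKD 1 and CKD 2 here. The study's methods give each group's sample size as its number of libraries, and neither they nor the labels say how many animals stand behind a library, so a p-value measures only the spread between these libraries, which may be technical.

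Dendritic cells take up antigen in tissue, and on maturing they stop sampling, load peptide on their surface MHC molecules and walk to the draining lymph node to present it to T lymphocytes. The chemokine receptor Ccr7 steers that walk along its ligands Ccl19 and Ccl21a, the actin-bundling protein fascin (Fscn1) forms the long dendrites, and the chemokines Ccl22 and Ccl17 draw T lymphocytes that carry Ccr4. Resident conventional dendritic cells fall into cDC1, which carry Xcr1 and Clec9a and cross-present antigen to CD8+ T lymphocytes, and cDC2, which include cells with Cd209a and Clec10a and favour CD4+ T lymphocytes. Either kind can mature into a migratory cell.

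Control held 2 mDC, AKI 1 had 13, AKI 2 had 24, CKD 1 had 73 and CKD 2 had 39. The median mDC had 5989.5, 7609, 15645, 8410 and 11941 UMIs in that order, and the single cells reached from 1341 to 74071 UMIs. Median Fscn1 was 11, 10, 22, 14 and 19 UMIs per cell, and median Ccr7 was 22.5, 20, 30.5, 25 and 29. Both genes therefore stood far above the limits of the rule in the middle cell of every library, while Ccl22 was less even, with a median of 6, 3, 9.5, 5 and 7 UMIs and 0, 1, 4, 13 and 6 cells without a UMI of it. Of the 558 kept cells with at least 3 Fscn1 UMIs, 266 also passed on Ccr7 and Ccl22, 223 on H2-Aa, 165 on the Cd3 genes and 151 on the C1q genes.

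Near the Fscn1 limit Ccr7 and Il4i1 changed by degrees rather than at a step, while Ccl22 did not rise steadily. With all other conditions met, 22 cells held 2 Fscn1 UMIs, just outside, and 14 held 3, just inside. Of the other limits, 5 cells lay just outside and 4 just inside for Ccr7 and Ccl22, 6 and 5 for H2-Aa, 5 and 20 for the Cd3 genes, and 1 and 1 for the C1q genes. The 55 cells with 1 or 2 Fscn1 UMIs averaged 7.67 Ccr7 and 1.22 Il4i1 UMIs per 10000 UMIs, the 22 mDC with 3 or 4 averaged 18.5 and 2.29, and the 129 mDC with 5 or more averaged 24.4 and 4.0. Ccl22 averaged 3.64, 2.35 and 15.7 in the same order. Cells just outside also carried more of the resident cDC2 gene Cd209a, at 1.81 per 10000 against 0.546 in the 22 cells just inside and 0.294 in the 129 further in, and Cd79a of B lymphocytes at 1.47 per 10000 against 0 in the 22 just inside. In all, 21 mDC held a UMI of the cDC1 pair Xcr1 and Clec9a only, 9 of the cDC2 pair Cd209a and Clec10a only, 1 of both, and 120 of neither.

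The libraries held 90028670 to 121316769 UMIs, and control differed from the rest in that 38.7% of its barcodes exceeded the mitochondrial limit, against 11.1% to 12.7% elsewhere. Kept cells had a median of 3151 to 5774.5 UMIs. Barcode sequences shared with another library were found for 4 mDC (1 in AKI 1, 2 in CKD 1 and 1 in CKD 2). Cells in which 7 tubule genes or 5 macrophage genes took at least 0.5% of the UMIs numbered 0, 1, 2, 7 and 0 of the mDC in control, AKI 1, AKI 2, CKD 1 and CKD 2, and they held 36.5%, 10.7% and 12.9% of all mDC UMIs in AKI 1, AKI 2 and CKD 1. These genes (Clu, Spp1, Krt8, Krt18, Lcn2, Epcam and Cdh16; Lyz2, Apoe, Cd81, Fn1 and Csf1r) were chosen after the data were seen. One cell of 74071 UMIs made up that share in AKI 1. At least 2 UMIs of a tubule marker were present in 2, 8, 8, 51 and 3 mDC, so CKD 1 differed from CKD 2 in this respect. No doublet caller was run and the deposited counts had not been corrected for ambient RNA, and the part of these cells in the results was not tested beyond the values given without them.

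The mDC were a small population in every library, and their share of cells was higher in both CKD libraries than in both AKI libraries. They made up 0.0218% of kept cells in control (exact 95% binomial interval 0.00264 to 0.0788), 0.116% in AKI 1 (0.0618 to 0.198), 0.221% in AKI 2 (0.142 to 0.329), 0.378% in CKD 1 (0.296 to 0.475) and 0.410% in CKD 2 (0.292 to 0.560). The control share lay below all others, although it rests on 2 cells, and the shares of the AKI and CKD libraries did not overlap. The interval of AKI 2 did overlap those of both CKD libraries, however. The CKD mean of 0.394% exceeded the AKI mean of 0.169% by 0.226 percentage points, with a pooled SD between libraries of 0.0550. With 2 libraries against 2, an exact permutation test cannot give less than p = 0.33, so no test was made. The intervals cover counting error only.

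When every cell with at least 2 UMIs of a tubule, endothelial or B lymphocyte marker was left out, of the mDC and of all kept cells alike, 622, 5430, 6648, 4293 and 7447 cells were left in control, AKI 1, AKI 2, CKD 1 and CKD 2. The mDC made up 0%, 0.0921%, 0.211%, 0.466% and 0.457% of them, so that both CKD libraries stayed above both AKI libraries, by 0.310 percentage points in the mean (pooled SD 0.0594). This filter on both sides was chosen after seeing the data. Among dendritic cells alone, that is cells in the mDC, cDC1 or cDC2 gate, the mDC made up 1.67% of 120 cells in control (0.202 to 5.89), 10.0% of 130 in AKI 1 (5.43 to 16.5), 14.1% of 170 in AKI 2 (9.26 to 20.3), 20.3% of 359 in CKD 1 (16.3 to 24.9) and 17.2% of 227 in CKD 2 (12.5 to 22.7). The order of the groups was the same with this denominator, which does not move with T lymphocytes or tubule cells, and the CKD mean of 18.8% exceeded the AKI mean of 12.1% by 6.70 percentage points (pooled SD 2.59). Without the cells that carried markers of other types the shares of dendritic cells were 0% of 8 cells, 7.46%, 11.9%, 16.5% and 17.3%, again with both CKD libraries above both AKI libraries. Among dendritic cells the intervals of all AKI and CKD libraries overlapped each other. With cells thinned to 3000 UMIs the shares of dendritic cells were 2.99%, 11.3%, 11.2%, 25.3% and 16.3% in the same order. The part of sequencing depth in these shares was not tested. Control differed from the injured kidneys in its other dendritic cells too, with 72 cDC1 and 46 cDC2 against 25 to 40 cDC1 and 85 to 246 cDC2.

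**Figure D1:**
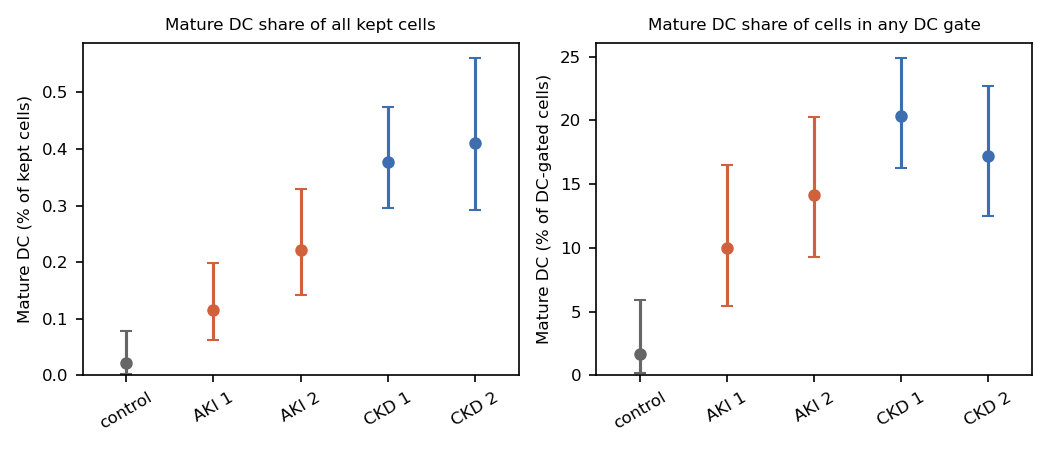
Share of mature migratory dendritic cells (mDC) in each library, as a percentage of all kept cells and of cells in any dendritic cell gate; points are libraries and bars are exact 95% binomial intervals, which cover counting error only. The control library lies lowest with 2 cells, and both CKD libraries lie above both AKI libraries. The interval of AKI 2 overlaps those of both CKD libraries in both shares, and that of AKI 1 overlaps them in the share of dendritic cells.

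Gene levels are given as UMIs per 10000 UMIs summed over the gated cells of a library (per 10000 hereafter), always in the order control, AKI 1, AKI 2, CKD 1 and CKD 2. The control value rests on 11979 UMIs from 2 cells, so that a gene with no UMI there could still lie at up to 3.08 per 10000 (exact 95% Poisson limit, counting error only). For comparison, mDC were set against cDC2 (653 cells with at least 2 UMIs of Cd209a and Clec10a) and cDC1 (202 cells with at least 2 UMIs of Xcr1 and Clec9a), both with at most 2 Fscn1 UMIs and otherwise gated like mDC, and against 23739 T lymphocytes as a background that should lack dendritic cell genes. Fold changes, as log2 values with their standard error (SE), and adjusted p-values come from edgeR's quasi-likelihood test on summed counts of the 4 AKI and CKD libraries with the library as a block and Benjamini-Hochberg adjustment over all genes tested. A gene counts as higher or lower when its adjusted p is under 0.05. The gates chose cells on the same counts, so a gene that accompanies Fscn1 or Ccr7 in single cells differs partly through that choice.

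Beyond the genes of the rule, the mDC carried the known programme of dendritic cell maturation as a whole. Summed over 25 further genes of that programme, the median mDC held 194, 155, 205, 185 and 190 UMIs per 10000 in the 5 libraries, and detected 19.5, 19, 23, 22 and 22 of the 25 genes. The cDC2 medians lay between 15.6 and 30.4, the cDC1 medians between 12.4 and 15.9 and the T lymphocyte medians between 11.3 and 17.6. No library's median mDC came near those of the other gates, but single mDC reached from 25.2 to 380, so the lowest mDC overlapped them. Single cells of the other gates reached up to 438 in cDC2, 175 in cDC1 and 232 in T lymphocytes. The highest cDC2 cell thus exceeded every mDC. The 10 cells rich in tubule or macrophage genes lay between 29.4 and 172.

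**Figure D2:**
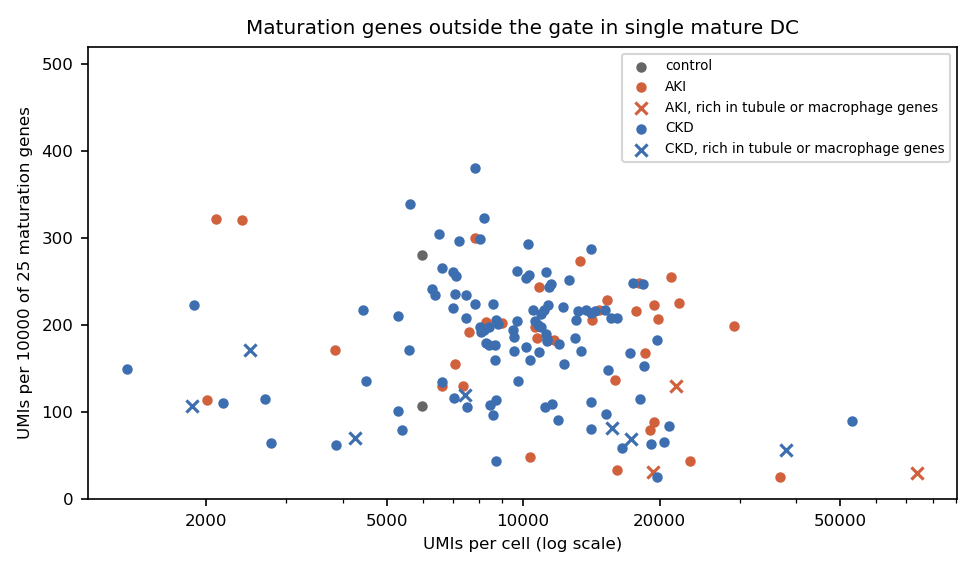
Each of the 151 mDC by its UMIs (horizontal, log axis) and its level of 25 maturation genes outside the rule (vertical, UMIs per 10000), coloured by group (control, AKI or CKD). Crosses are cells in which tubule or macrophage genes took at least 0.5% of the UMIs. The 10 crosses lie between 29.4 and 172 per 10000, and the other 141 cells between 25.2 and 380.

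Of the 7265 genes tested against cDC2, 25.6% were called, 12.6% higher in mDC and 13% lower, and of the 5919 tested against cDC1, 31.6% were called, 17.7% higher and 13.9% lower. Against that background, 24 of the 25 maturation genes were higher than in cDC2 and 0 lower (median log2 fold change 3.06, against −0.01 over all genes), and 25 of 25 were higher than in cDC1 (median 3.88, against 0.01). The exception was Ccl17 against cDC2. Since this list gathers genes known to travel with Fscn1 and Ccr7, the count describes what the rule selected. Without AKI 2, CKD 1 or CKD 2 the calls against cDC2 numbered 1117, 1047 and 1122 in place of 1858, and without CKD 1 those against cDC1 numbered 1120 in place of 1872.

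Nudt17, which encodes a hydrolase of the Nudix family, was at 0.835, 1.48, 3.22, 2.75 and 2.30 per 10000 in mDC. It was at most 0.00903 in cDC2 and 0.0194 in cDC1, so that its level in each mDC library exceeded every cDC library, by a log2 fold change of 9.33 ± 0.42 (SE) against cDC2 (edgeR adjusted p = 1.0e-06). In cells thinned to 3000 UMIs it was detected in 50.4% of 141 mDC, 0.165% of 607 cDC2 and 0.150% of 18029 T lymphocytes, and without thinning in 78.1% of 151, 0.306% of 653 and 0.329% of 23739. Anxa3, an annexin that binds phospholipid, was at 4.17, 5.36, 6.45, 5.57 and 4.57 per 10000. Anxa3 never exceeded 0.238 in cDC2, so the gates did not overlap, with a log2 fold change of 4.78 ± 0.19 (edgeR adjusted p = 6.4e-07). Cacnb3, a calcium channel beta subunit, was at 7.51, 1.67, 3.15, 3.91 and 2.89 per 10000 against at most 0.0227 in cDC2 and 0.0591 in cDC1. Cacnb3 was highest in the 2 control cells and lowest in AKI 1, where it was 2.40 without the cell rich in other RNA, and its log2 fold change was 7.85 ± 0.38 against cDC2 (edgeR adjusted p = 1.2e-06) and 6.97 ± 0.45 against cDC1.

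Serpinb6b, a serine protease inhibitor, was at 13.4, 9.60, 12.5, 10.3 and 10.4 per 10000. It was 6.90 ± 0.32 higher on the log2 scale than in cDC2, where it stayed at or below 0.141, and 3.96 ± 0.22 higher than in cDC1, where it reached 1.18. All mDC libraries lay above all libraries of both gates. Epsti1, an interferon-inducible gene, was at 8.35, 13.2, 18.6, 12.6 and 13.9 per 10000, above every cDC2 value (0.611 to 0.889) and every cDC1 value (1.0 to 1.5), with log2 fold changes of 4.14 ± 0.19 and 3.77 ± 0.21. Tmem123, a membrane mucin, was at 14.2, 6.35, 10.7, 9.74 and 7.75 per 10000, and Zmynd15, a zinc finger gene, at 6.68, 1.87, 4.47, 2.67 and 2.32. Both lay above all cDC libraries, by 3.42 ± 0.23 and 5.55 ± 0.39 against cDC2. Cd83, a surface protein that steadies MHC class II on mature dendritic cells, was the nearest to the resident cells of those named, at 7.51, 4.23, 7.18, 6.30 and 7.55 per 10000 against 2.68 to 4.42 in cDC2, with a log2 fold change of 0.66 ± 0.20 (edgeR adjusted p = 0.032).

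**Figure D3:**
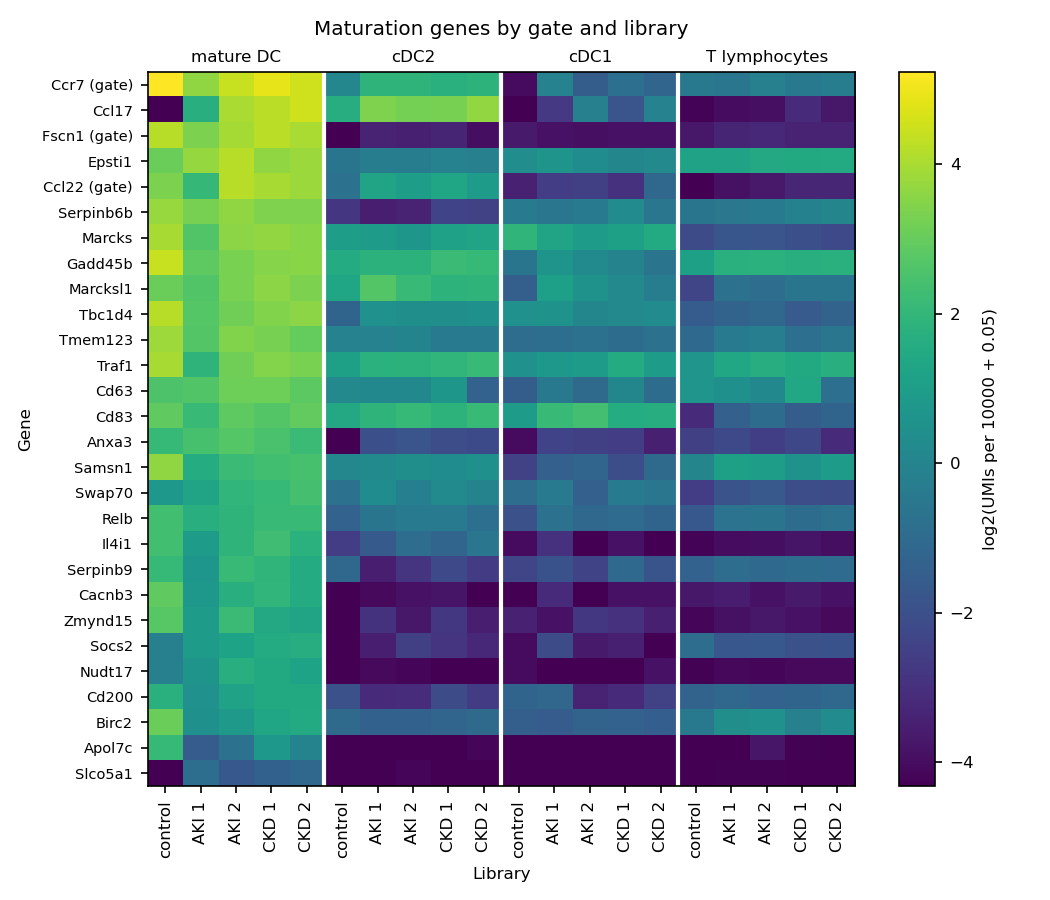
Levels of 28 maturation genes, 3 of them from the rule, in mDC, cDC2, cDC1 and T lymphocytes of each library, as log2 of UMIs per 10000 with 0.05 added; each row is a gene, each column a library within a gate. The mDC columns are high for nearly all genes in all 5 libraries, and Ccl17 is the gene that cDC2 share.

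Secreted signals went in both directions against cDC2 and in one direction against cDC1. Of 19 cytokine and chemokine genes tested outside the rule, 7 were higher and 7 lower in mDC than in cDC2 (median 0.35), and of 17 tested against cDC1, 12 were higher and 0 lower (median 2.09). Ccl22, a gate gene and so only described, was at 10.0, 4.04, 18.5, 15.6 and 13.9 per 10000 in mDC, 0.540 to 2.46 in cDC2 and 0.0420 to 0.407 in cDC1. Its neighbour Ccl17, which binds the same receptor, was at 0, 3.15, 16.1, 18.8 and 23.1 per 10000 in mDC and 3.03, 10.5, 9.41, 9.62 and 12.8 in cDC2. Ccl17 lay above cDC2 in AKI 2 and both CKD libraries and below it in AKI 1, and the difference did not pass the test (log2 fold change 0.35 ± 0.43, edgeR adjusted p = 0.61). Against cDC1, where Ccl17 stayed at or below 0.892, it was higher by 5.15 ± 0.30 (edgeR adjusted p = 3.2e-07).

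The promoters of these 2 chemokine genes, which lie near each other on chromosome 8, are shown because their products define the cells by the rule and by the maturation list. Both windows run from 250 bases before to 50 after the annotated start and come from RefSeq, build GRCm38.p6, plus strand, Ccl22 at chr8:94745434-94745733 and Ccl17 at chr8:94810203-94810502. Neither holds the NF-kB motif (GGGA, any base, TTTCC) or its looser form (GGGA, any 2 bases, TTCC) on either strand, so nothing is in capitals; the letters are simply not in this window.
Ccl22: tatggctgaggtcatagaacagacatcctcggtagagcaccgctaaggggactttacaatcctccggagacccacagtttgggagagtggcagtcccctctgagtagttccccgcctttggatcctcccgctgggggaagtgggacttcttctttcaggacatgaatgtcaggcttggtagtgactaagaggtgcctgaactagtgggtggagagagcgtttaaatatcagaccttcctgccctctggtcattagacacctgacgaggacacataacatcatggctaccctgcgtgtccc
Ccl17: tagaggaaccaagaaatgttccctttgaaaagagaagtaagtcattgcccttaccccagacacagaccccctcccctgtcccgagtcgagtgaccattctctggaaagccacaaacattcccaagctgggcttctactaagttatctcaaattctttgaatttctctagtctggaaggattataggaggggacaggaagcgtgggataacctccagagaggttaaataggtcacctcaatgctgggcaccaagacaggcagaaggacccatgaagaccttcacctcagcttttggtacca

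Ccl5, a chemokine for effector T lymphocytes and NK cells, was at 238, 72.7, 82.6, 79.4 and 78.7 per 10000 in mDC. With all mDC summed, the 4 injured libraries lay within a narrow band, and control was higher with 285 UMIs in 2 cells. That sum includes the cell that held 36.5% of the mDC UMIs of AKI 1. The 27 cytokine and chemokine genes outside the rule summed to 121, 158, 155 and 158 per 10000 in the injured libraries. Without the cells rich in tubule or macrophage genes they summed to 180, 163, 169 and 158, so AKI 1 was then highest. With all mDC, Ccl5 in every library lay above cDC2 (5.43 to 24.1) and cDC1 (0.0736 to 4.14). The log2 fold changes were 2.40 ± 0.30 (edgeR adjusted p = 0.00027) and 4.93 ± 0.25 (1.4e-07). T lymphocytes themselves held 28.8 to 67.7 per 10000, below mDC in each library. Cxcl16, a membrane-bound chemokine for Cxcr6, was at 6.68, 5.32, 6.58, 7.57 and 6.43 per 10000 and higher than in cDC2 by 1.44 ± 0.17. Il12b, the shared p40 subunit of IL-12 and IL-23, was at 0, 1.67, 7.88, 7.10 and 2.28 per 10000 in mDC and at or below 0.0499 in cDC2, while cDC1 held 0.190 to 1.34. Il12b varied between the libraries of one group as much as between groups, and its log2 fold change was 7.97 ± 0.55 against cDC2 (edgeR adjusted p = 9.2e-06) and 3.25 ± 0.45 against cDC1 (0.00021). It was detected in 34.8% of thinned mDC, 0.659% of thinned cDC2 and 0.122% of thinned T lymphocytes, and in 42.4%, 1.07% and 0.147% of all cells of these gates. Il12b was therefore carried by part of the mDC at this depth.

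Il15, which sustains CD8+ T lymphocytes and NK cells, was at 0.835, 0.492, 0.624, 0.609 and 0.792 per 10000, and its presenting receptor chain Il15ra at 1.67, 0.492, 0.884, 0.624 and 0.645. Both were higher than in cDC2 (4.61 ± 0.39 and 4.02 ± 0.27) and cDC1 (2.93 ± 0.40 and 4.14 ± 0.50) and lay above all cDC libraries. The genes that were lower belonged to inflammatory chemokines and cytokines of myeloid cells. Il1b was at 2.50, 4.08, 3.38, 2.94 and 2.36 per 10000 in mDC and 3.29, 13.0, 22.3, 16.2 and 12.8 in cDC2 (log2 fold change −2.33 ± 0.17, edgeR adjusted p = 1.6e-05). Ccl4, an inflammatory chemokine, was at 15 to 18.9 per 10000 against 48.5 to 69.1 in cDC2 (−1.76 ± 0.17), and Ccl6 was at 0 to 0.221 against 1.03 to 3.84 (−3.76 ± 0.24). None of these 3 genes differed past the test from cDC1. Cxcl10, an interferon-induced ligand of Cxcr3, was at 9.18, 4.97, 6.76, 9.96 and 13.1 per 10000, lower than in cDC2 (−1.11 ± 0.28, edgeR adjusted p = 0.017) and higher than in cDC1 (1.23 ± 0.30, 0.0082).

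Genes for the signals that dendritic cells give T lymphocytes at contact were higher in mDC for both stimulating and restraining partners. Of 9 co-stimulatory genes tested, 5 were higher and 1 lower than in cDC2 (median 1.27), and 8 were higher and 1 lower than in cDC1 (median 1.93). Cd40, the receptor for CD40 ligand of helper T lymphocytes, was at 1.67, 1.97, 1.53, 2.52 and 1.88 per 10000, against 0.188 to 0.503 in cDC2 and 0.0631 to 0.291 in cDC1. No mDC library overlapped a cDC library, and the log2 fold changes were 2.12 ± 0.18 (edgeR adjusted p = 3.3e-05) and 3.42 ± 0.25 (2.1e-06). Cd70, the ligand of Cd27, was at 0, 0.640, 0.546, 0.876 and 0.442 per 10000 and at or below 0.0394 in both cDC gates (4.93 ± 0.44 and 5.88 ± 0.56). Icosl, Icam1 and Tnfsf4 (ligand of OX40) were higher too, by 1.27 ± 0.20, 1.45 ± 0.20 and 2.43 ± 0.43 against cDC2.

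The classical B7 genes were less particular. Cd86 was at 5.84, 1.13, 1.22, 1.51 and 1.69 per 10000 in mDC and 0.775, 1.37, 1.14, 1.43 and 1.48 in cDC2, so that the injured libraries overlapped, and its log2 fold change was 0.06 ± 0.19 (edgeR adjusted p = 0.85). Cd80 was at 0, 0.0984, 0.468, 0.698 and 0.460 per 10000, with 0.32 ± 0.36 against cDC2 (edgeR adjusted p = 0.57) and 1.93 ± 0.46 against cDC1 (0.0069). Tnfsf9, the ligand of 4-1BB, was at 2.50, 3.10, 1.90, 2.87 and 4.09 per 10000 and missed the threshold against cDC2 (0.69 ± 0.23, edgeR adjusted p = 0.051) while it was higher than in cDC1 by 3.37 ± 0.27. Cd48, an adhesion ligand, was the co-stimulatory gene that was lower, by −0.98 ± 0.24 against cDC2 and −1.08 ± 0.26 against cDC1.

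Of 16 genes of co-inhibition and immune regulation tested against cDC2, 7 were higher and 3 lower (median 0.65), and of 14 tested against cDC1, 9 were higher and 3 lower (median 2.30). Cd274 (PD-L1) was at 1.67, 2.21, 3.54, 3.58 and 3.33 per 10000, against 0.141 to 1.35 in cDC2 and 0.0315 to 0.453 in cDC1. All mDC libraries lay above all cDC libraries (log2 fold change 1.36 ± 0.22 against cDC2, edgeR adjusted p = 0.0016, and 3.44 ± 0.29 against cDC1, 4.8e-06). It was detected in 61.0% of thinned mDC, 24.4% of thinned cDC2 and 19.3% of thinned T lymphocytes, which use the gene themselves, and in 83.4%, 49.8% and 26.2% without thinning. Il4i1, a secreted amino acid oxidase that restrains T lymphocytes, was at 5.01, 1.92, 3.69, 4.83 and 3.39 per 10000, 0.117 to 0.619 in cDC2 and 0 to 0.0788 in cDC1 (2.98 ± 0.23 and 7.21 ± 0.53). Aldh1a2, which makes retinoic acid, was at 0, 0.984, 1.25, 0.638 and 0.681 per 10000 and 0.0235 to 0.199 in cDC2 (2.94 ± 0.28, edgeR adjusted p = 5.2e-05). Cd200, Fas and Pdcd1lg2 (PD-L2) were likewise higher in all 4 injured libraries, by 4.47 ± 0.24, 2.88 ± 0.22 and 2.49 ± 0.27 against cDC2. Tgfb1 went the other way, at 0, 0.591, 0.598, 0.401 and 0.516 per 10000 in mDC and 1.39 to 1.86 in cDC2 (−1.68 ± 0.18, edgeR adjusted p = 0.00012).

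The mDC were poor in receptors of inflammatory chemokines and in leukocyte integrins. Of 17 genes for chemokine receptors and motility tested outside the rule, 1 was higher and 10 were lower than in cDC2 (median −1.33), and of 15 tested against cDC1, 3 were higher and 5 lower (median −0.27). Ccr7, described here without a test, was at 37.6, 12.4, 21.5, 29.1 and 23.0 per 10000 in mDC, 1.03 to 3.70 in cDC2 and 0.0105 to 0.887 in cDC1. Ccr2, the receptor that brings monocytes and their kin into tissue, was at 0, 0, 0.0520, 0.0148 and 0.0368 per 10000 in mDC, with 5 UMIs in the 4 injured libraries together. In cDC2 it lay between 1.08 and 1.81 and in cDC1 between 2.11 and 3.59. Its level pooled over these libraries was 47.0 times lower than in cDC2 (exact 95% counting interval 20.1 to 145) and 98.4 times lower than in cDC1 (41.9 to 304), with edgeR adjusted p = 6.8e-06 and 2.3e-07.

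Ccr1, a receptor of inflammatory chemokines, was at or below 0.345 per 10000 in mDC, lower than in cDC2 by −3.69 ± 0.46. The integrin chains Itgam (CD11b), Itgb2 (CD18) and Itgax (CD11c) were lower as well, by −3.43 ± 0.47, −2.32 ± 0.33 and −1.74 ± 0.18. Itgax was at 2.50, 0.689, 0.520, 0.460 and 0.424 per 10000, so that this customary dendritic cell marker was below cDC2 in all 4 injured libraries. Against cDC1 only Itgb2 of these 3 differed past the test (−1.72 ± 0.31), and Itgae (CD103), the integrin of many tissue cDC1, was lower by −3.74 ± 0.30. Myo1g, a class I myosin of leukocytes, was the motility gene that was higher than in cDC2, at 2.50, 1.77, 3.51, 3.52 and 3.17 per 10000 (1.60 ± 0.25, edgeR adjusted p = 0.0013).

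Antigen presentation divided between the MHC classes. Of 13 class II genes tested outside the rule, 1 was higher and 8 were lower than in cDC2 (median −0.80), and against cDC1 4 were higher and 6 lower (median −0.29). Of 16 class I genes, 12 were higher and 2 lower than in cDC2 (median 0.84), and 7 higher and 2 lower than in cDC1 (median 0.14). H2-Ab1, the class II beta chain, was at 50.9, 37.3, 33.6, 46.9 and 42.0 per 10000 in mDC against 64.6 to 109 in cDC2 and 81.1 to 96.1 in cDC1. Every mDC library lay below every cDC library, by −1.38 ± 0.19 (edgeR adjusted p = 0.00047) and −1.0 ± 0.17 (0.00095). H2-Aa, its partner chain and a gate gene in all 3 populations, was at 84.3, 45.6, 49.5, 59.0 and 58.7 per 10000.

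The peptide-loading factor H2-DMb1 stood out in this group, at 0.835, 1.08, 1.30, 0.832 and 0.976 per 10000 in mDC, 4.63 to 8.98 in cDC2 and 5.98 to 7.74 in cDC1 (−2.94 ± 0.18 and −2.59 ± 0.20). Its partner H2-DMa was lower by −1.28 ± 0.17 and −0.83 ± 0.18. March1, the ubiquitin ligase that sends class II molecules from the surface to degradation, was at 0, 0, 0, 0.0148 and 0.0552 per 10000 in mDC against 0.126 to 0.258 in cDC2 and 0.236 to 0.778 in cDC1 (−2.71 ± 0.67, edgeR adjusted p = 0.015, and −3.90 ± 0.57, 0.00031). H2-Eb1 did not pass against either (−0.50 ± 0.21, edgeR adjusted p = 0.11, and −0.07 ± 0.20, 0.83), and the protease Lgmn was the class II gene that was higher against cDC2 (0.63 ± 0.20, edgeR adjusted p = 0.046). For class I, H2-K1, a chain of the class I molecule, was at 22.5, 22.3, 23.5, 21.9 and 21.1 per 10000, nearly level with all mDC summed. Its light chain B2m was at 55.1, 32.2, 39.4, 35.7 and 38.8. Both lay above every cDC library, by 1.28 ± 0.16 and 1.29 ± 0.17 against cDC2. The proteasome activator Psme2 was higher by 1.72 ± 0.20 and Nlrc5, the transactivator of class I genes, by 2.14 ± 0.36, while the chaperones Calr and Pdia3 were the class I genes that were lower (−0.84 ± 0.17 and −0.89 ± 0.17). H2-K1 and H2-D1 are close relatives of other class I genes, so reads may have been divided among them.

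The NF-kB pathway, whose products switch on maturation, was compared over 21 genes. Against cDC2, 9 were higher, 1 was lower and 11 did not pass the test (median 0.59), and against cDC1, 17 were higher and 0 lower (median 1.45). Relb, the subunit of the alternative pathway, was at 5.01, 3.15, 3.64, 4.45 and 4.35 per 10000 in mDC, 0.352 to 0.730 in cDC2 and 0.210 to 0.552 in cDC1. Its libraries did not overlap with either gate (log2 fold change 2.62 ± 0.21, edgeR adjusted p = 2.5e-05, and 3.29 ± 0.25, 2.5e-06). Its partner Nfkb2 was at 2.50, 1.72, 1.85, 1.63 and 1.71 per 10000 (1.65 ± 0.18 and 1.73 ± 0.20), and the inhibitor Nfkbia, itself an NF-kB target, at 46.7, 28.1, 30.5, 32.7 and 37.8 (0.60 ± 0.16 and 1.98 ± 0.23). Rel, a subunit of the classical pathway, did not differ past the test from cDC2 (0.19 ± 0.22, edgeR adjusted p = 0.58) but was higher than in cDC1 (1.58 ± 0.23, 0.00029). The survival gene Bcl2a1b was higher by 1.17 ± 0.24 and 2.75 ± 0.24, with near-identical copies in the genome that make its own count uncertain.

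The NF-kB motif (GGGA, any base, TTTCC), searched on both strands, occurred in 0.411% of 32851 RefSeq promoter windows of 300 bases and its looser form (GGGA, any 2 bases, TTCC), which includes the first, in 1.47%. Of 17 NF-kB list genes with a window, 3 held the first form (Cyld, Nfkb2 and Nfkbia), as did 3 of 20 cytokine genes (Cxcl2, Il16 and Il6) and 0 of 20 maturation genes. The windows of Nfkb2 (chr19:46305445-46305744, plus strand, 1 of 3 windows of this gene) and Nfkbia (chr12:55492598-55492897, minus strand) are printed since both genes were higher in mDC, with the matches to either form in capitals. The first match in Nfkb2 begins 236 bases before the annotated start and has only the looser form, and the one in Nfkbia begins 29 bases before it. A match is a description of the letters and not a site of binding.
Nfkb2: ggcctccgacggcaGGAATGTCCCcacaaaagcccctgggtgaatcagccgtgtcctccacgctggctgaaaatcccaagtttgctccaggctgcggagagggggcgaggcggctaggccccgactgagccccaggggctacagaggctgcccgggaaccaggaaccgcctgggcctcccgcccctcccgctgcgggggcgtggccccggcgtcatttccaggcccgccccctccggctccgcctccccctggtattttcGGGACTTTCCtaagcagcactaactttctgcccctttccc
Nfkbia: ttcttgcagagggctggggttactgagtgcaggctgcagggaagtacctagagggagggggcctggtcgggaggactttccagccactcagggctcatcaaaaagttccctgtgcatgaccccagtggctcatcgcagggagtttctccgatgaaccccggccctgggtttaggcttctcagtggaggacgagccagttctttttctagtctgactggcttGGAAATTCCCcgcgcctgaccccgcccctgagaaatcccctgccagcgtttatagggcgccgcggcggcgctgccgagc

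Interferon-stimulated genes did not move as one group. Of 21 tested, 6 were higher and 7 lower than in cDC2 (median −0.47), and of 18 tested against cDC1, 9 were higher and 3 lower (median 1.06). The genes that were higher than in cDC2 included Irf1 (0.835, 3.59, 2.39, 3.76 and 3.76 per 10000, log2 fold change 2.16 ± 0.16, edgeR adjusted p = 1.7e-05), Gbp2 (1.51 ± 0.27) and Gbp4 (2.30 ± 0.36), which respond strongly to interferon gamma. Those that were lower included Rtp4 (−1.73 ± 0.34) and Ifit3b, which had no UMI in the mDC and was at least 8.31-fold lower against a floor of 3 counts over the gate. Isg15 was at 30.1, 8.47, 10.8, 13.5 and 11 per 10000 and differed from cDC1 (3.03 ± 0.30) but not past the test from cDC2 (0.34 ± 0.30, edgeR adjusted p = 0.44). Ifit1 also differed only from cDC1, with 3.12 ± 0.27 against cDC1 and −0.83 ± 0.28 against cDC2 (edgeR adjusted p = 0.056).

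**Figure D4:**
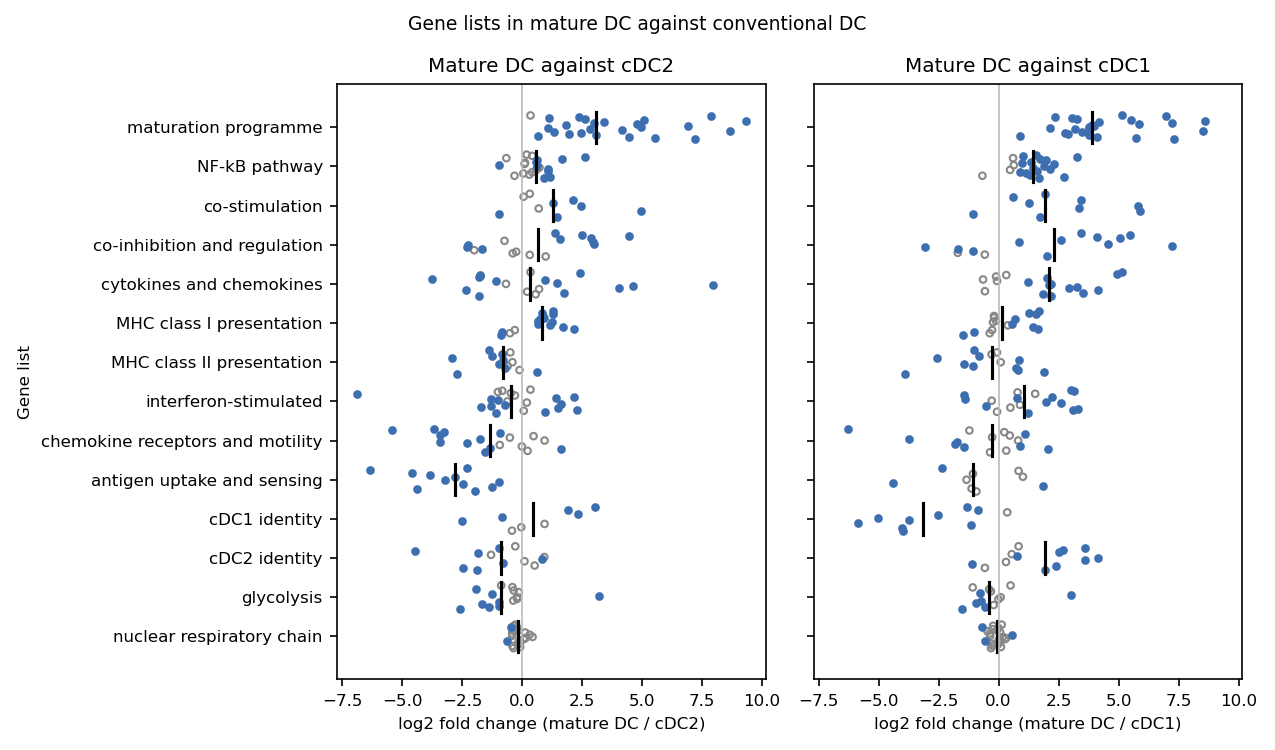
Log2 fold changes of mDC against cDC2 and against cDC1 for the tested genes of 14 lists; each point is a gene outside the rules of either gate, filled when its edgeR adjusted p was under 0.05, and the black bar is the median of the list. Maturation genes lie far to the higher side in both comparisons, uptake genes to the lower side against cDC2, and cDC1 identity genes to the lower side against cDC1.

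Markers of the resident lineages were retained in part. Of 8 cDC1 genes tested against cDC2, 3 were higher and 2 lower (median 0.45), and of 10 tested against cDC1, 0 were higher and 9 lower (median −3.13). Irf8, the transcription factor that cDC1 depend on, was at 0.835, 4.77, 6.24, 7.56 and 6.06 per 10000 in mDC, 1.43 to 4.23 in cDC2 and 10.1 to 15.1 in cDC1. In the injured libraries it therefore lay between the gates without overlap, 1.90 ± 0.23 above cDC2 (edgeR adjusted p = 0.00026) and −0.85 ± 0.16 relative to cDC1 (0.002). Batf3 was at 1.67, 1.53, 2.57, 2.29 and 2.36 per 10000, near cDC1 (1.60 to 2.11; 0.36 ± 0.21, edgeR adjusted p = 0.22) and above cDC2 (2.31 ± 0.28). Other cDC1 genes were low in mDC, among them Naaa, a lysosomal amidase, at 0, 0.246, 0.286, 0.119 and 0.516 per 10000 against 9.31 to 11.7 in cDC1 (−5.03 ± 0.30), Ppt1 (−3.99 ± 0.24) and Wdfy4 (−2.53 ± 0.21).

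Of 12 cDC2 genes tested against cDC2, 1 was higher and 6 lower (median −0.89), and of 13 tested against cDC1, 8 were higher and 1 lower (median 1.95). Mgl2, a lectin of cDC2, was at 0, 0.0984, 0.728, 0.282 and 0.387 per 10000 in mDC and 12.1, 9.71, 7.78 and 6.56 in the cDC2 of the injured libraries, without overlap (−4.48 ± 0.37, edgeR adjusted p = 2.5e-05). Sirpa was lower than in cDC2 (−0.99 ± 0.26) and higher than in cDC1 (2.52 ± 0.47). Irf4, which migratory cDC2 need, was at 0, 0.541, 0.494, 0.490 and 0.405 per 10000, not different past the test from cDC2 (−0.29 ± 0.23, edgeR adjusted p = 0.39) and higher than in cDC1 (2.69 ± 0.39). Tmem176a and Tmem176b, ion channel genes of cDC2, were at 6.25 to 16.7 and 5.84 to 9.06 per 10000 and higher than in cDC1 by 4.13 ± 0.32 and 3.60 ± 0.27. Of 9 genes shared by all conventional dendritic cells, 4 were higher and 4 lower than in cDC2 and 0 higher and 3 lower than in cDC1. Flt3, the growth factor receptor of the lineage, was present in every library at 0.835, 0.394, 0.702, 0.535 and 0.608 per 10000 and at or below 0.00316 in T lymphocytes.

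All 11 genes for antigen uptake and sensing that could be tested were lower than in cDC2 (median −2.81). They included the mannose receptor Mrc1, with 1 UMI in the mDC of the injured libraries (a level 104 times lower, counting interval 18.5 to 4111), the endotoxin co-receptor Cd14 (0 to 0.295 per 10000 against 0.423 to 2.24, −4.39 ± 0.38), the lectin Clec4n (−4.61 ± 0.56) and the Fc receptors Fcgr3 (−3.22 ± 0.40) and Fcgr2b. Cybb, a subunit of the phagocyte oxidase, was the gene whose direction depended on the partner, lower than in cDC2 (−1.26 ± 0.20) and higher than in cDC1 (1.85 ± 0.38). Against cDC1 1 of 9 was higher and 2 were lower (median −1.07), the lower ones being Cd36, a scavenger receptor (0 to 0.0780 per 10000 against 0.630 to 1.68), and Tlr11. Another 8 uptake genes lay below the filter on low counts against cDC2 and 11 against cDC1.

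The 10 largest increases among all genes called in the same direction in each of the 4 injured libraries came from genes nearly silent in the resident cells. Against cDC2 they were Nudt17, H2-M2, Apol7c, Asprv1, Il12b, Cacnb3, Ttc39a, Synpo2, Bcl2l14 and Slco5a1. H2-M2, a class I-like gene, had 188 UMIs in 1804279 of mDC and 1 in 7020557 of cDC2, a ratio of 732 (counting interval 130 to 29045), and Asprv1, a protease, had 71 and 0, at least 92.1-fold higher against a floor of 3 counts over the gate. Against cDC1 they were H2-M2, Nudt17, Apol7c, Tm4sf5, Synpo2, Cdk5r1, Slco5a1, Cdkn2b, Il4i1 and Tnfrsf9. Apol7c, an apolipoprotein L gene, was at 4.17, 0.295, 0.546, 1.66 and 0.921 per 10000 and at least 75.5-fold higher than in cDC1, where it had no UMI. Tnfrsf9 (4-1BB), a receptor otherwise known from activated T lymphocytes, was at least 23.2-fold higher than in cDC1, at 0, 0.197, 0.624, 0.297 and 0.184 per 10000.

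The 10 largest decreases against cDC2 were Trem1, Ifit3b, Gpr141, Ltb4r1, Mrc1, Mmp12, Pilrb2, Cd209d, Pilra and Ccr2. Ltb4r1, the leukotriene B4 receptor, had 1 UMI in mDC and 468 in cDC2 (ratio 120, counting interval 21.5 to 4761), Mmp12, an elastase of macrophages, had 2 and 628 (80.7, 22.2 to 668), and Trem1, an amplifier of inflammatory signals, had 0 and 95 (at least 8.14-fold lower). Against cDC1 they were Ccr2, Gpr141, Gpr34, Tlr3, Rgs18, Naaa, Rab7b, Cd36, Gpr141b and Sult1a1. Tlr3, the sensor of double-stranded RNA in cDC1, was 92.7 times lower (counting interval 16.3 to 3693).

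Between CKD and AKI, no single gene of the mDC passed the test. Of 4415 genes tested with edgeR on the summed counts of 2 CKD and 2 AKI libraries, 0 were called (0%), 256 had an unadjusted p under 0.05, and DESeq2 called 7 of the same genes (92 at an unadjusted p under 0.05). Without AKI 1 edgeR called 82 genes, without AKI 2 296, without CKD 1 118 and without CKD 2 0, with the lone library of a group assumed to vary like the other pair. The difference between mDC and cDC2 did not change between CKD and AKI for any gene past the test either (0 of 7265, 406 at an unadjusted p under 0.05, interaction term in edgeR). As a description, libraries of the groups did not overlap for 15.2% of all genes in the direction of CKD and for 21.4% in the direction of AKI. Of the 25 maturation genes 12 were higher in CKD without overlap and 0 lower (median log2 difference 0.47, against −0.01 over all genes). Summed over these 25 genes, the level was 100.2, 168, 171 and 168 per 10000 in AKI 1, AKI 2, CKD 1 and CKD 2, and 141, 178, 185 and 168 without the cells rich in tubule or macrophage genes, so that AKI 1 was lowest either way, AKI 2 lay beside the CKD libraries, and the groups overlapped without those cells.

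Interferon-stimulated genes were higher in CKD without overlap for 9 of 15 tested and lower for 0 (median 0.74), class II genes for 7 of 12 with 1 lower (median 0.40) and NF-kB genes for 10 of 20 with 5 lower (median 0.32). None of their members passed the test. The summed interferon-stimulated level was 90.2, 37.6, 36.1, 52.8 and 54.4 per 10000, and 47.8, 35.9, 57.6 and 54.4 in the injured libraries without the cells rich in other RNA, still without overlap. The summed level of the 13 class II genes outside the rule was 277, 197, 233, 276 and 268 per 10000, but 295, 246, 306 and 268 in the injured libraries without those cells, so that AKI 1 then lay above CKD 2. Genes named from here on were chosen after their values were seen. Fabp5, a fatty acid binding protein, was at 9.18, 7.38, 10.5, 28.2 and 20.7 per 10000 in mDC, both CKD libraries above both AKI libraries and control. Its log2 fold change was 1.5 ± 0.30 with edgeR adjusted p = 0.52, and DESeq2 called it (1.5 ± 0.34, adjusted p = 0.013). Without the cells rich in other RNA it was at 11.6, 10.8, 31.5 and 20.7 per 10000. In every library Fabp5 was far above cDC2 (0.0470 to 1.38) and cDC1 (0.138 to 0.591), by 4.07 ± 0.34 and 5.84 ± 0.20 (edgeR adjusted p = 2.8e-05 and 3.8e-09).

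S100a4, a calcium-binding protein of motile cells, was at 14.2, 6.20, 10.7, 18.6 and 22.1 per 10000 (1.32 ± 0.34, edgeR adjusted p = 0.75), with CKD above AKI in all resident dendritic cell and T lymphocyte gates as well. The histone gene Hist1h2ap was at 0.835, 0.0984, 0, 1.5 and 1.45 per 10000, that is 2 and 0 UMIs in the AKI libraries against 101 and 79 in the CKD libraries, and was called by DESeq2 and by edgeR once the cells rich in tubule or macrophage genes were left out (log2 fold change 5.90, adjusted p = 0.00885). Histone genes of this cluster are near-identical, so the count is uncertain. Clu, a secreted chaperone of injured tubule and other cells, was at 0, 5.02, 12.3, 1.63 and 0.571 per 10000 and at 1.24, 2.30, 1.07 and 0.571 in the injured libraries without the cells rich in other RNA, for whose choice Clu itself was used. C3, called lower by DESeq2, went from 2.90, 0.312, 0.0594 and 0.0368 to 0, 0.0291, 0.0341 and 0.0368 when those cells were left out, so its difference sat in them. Cd81, a tetraspanin in the macrophage marker list, was at 0, 3.94, 3.67, 1.56 and 1.14 per 10000 (−1.42 ± 0.27, edgeR adjusted p = 0.52) and kept both AKI libraries above CKD without those cells (2.79, 3.41, 1.52 and 1.14), although it was also used to choose them. The summed macrophage marker list was at 1.67, 6.05, 6.99, 2.88 and 1.49 per 10000, and its part in the differences between groups was not tested.

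**Figure D5:**
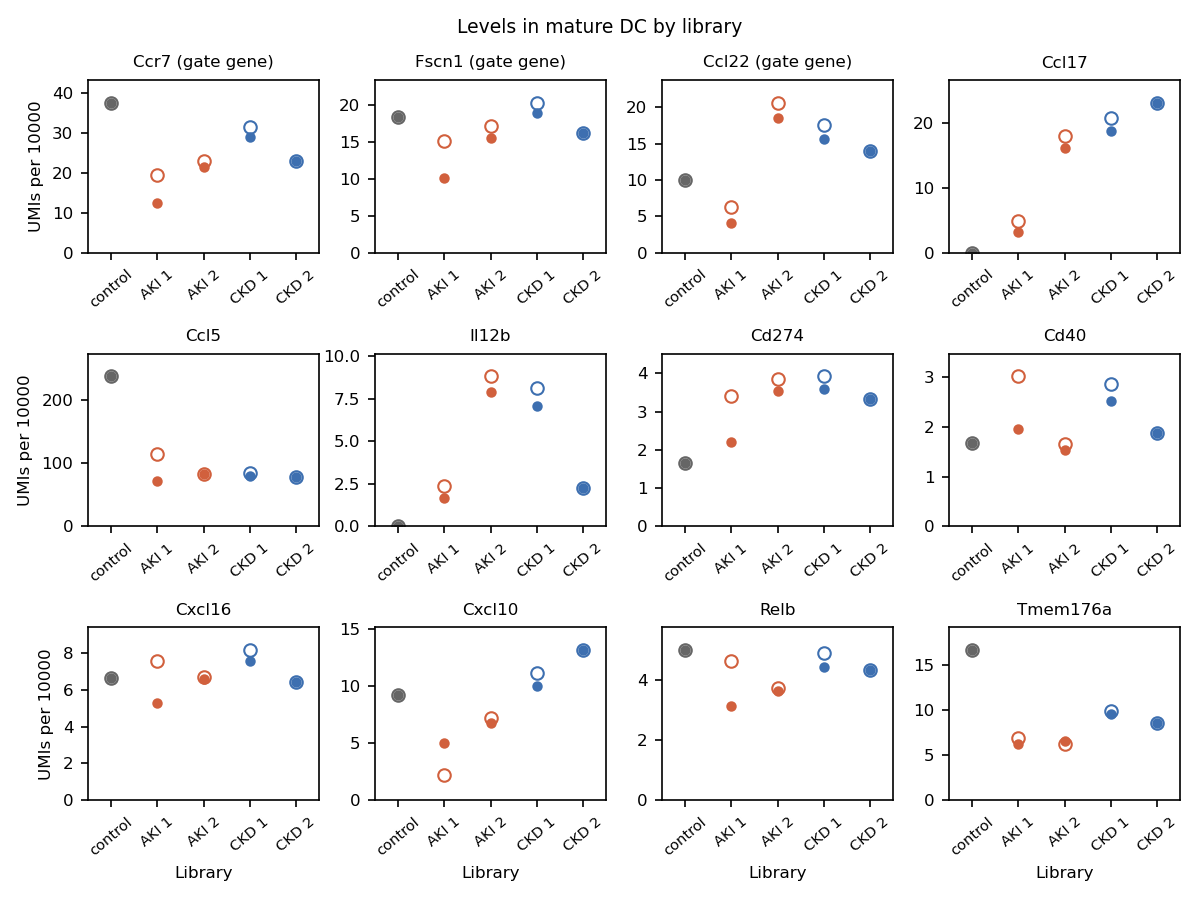
Levels of 12 genes in mDC by library, in UMIs per 10000; filled points use all mDC and open points leave out cells in which tubule or macrophage genes took at least 0.5% of the UMIs. The genes are Ccr7, Fscn1 and Ccl22, which belong to the rule, and Ccl17, Ccl5, Il12b, Cd274, Cd40, Cxcl16, Cxcl10, Relb and Tmem176a. Filled and open points coincide in control and CKD 2, where no mDC was left out.

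Of the markers of other cells, the Cd3 and C1q genes are held low in mDC by the rule, so only the others are described. The summed level of the 7 T lymphocyte markers outside the rule was 0.416 to 1.67 per 10000, against 21.5 to 33.2 in T lymphocytes, that of 4 neutrophil markers 0 to 0.0148 and that of 3 fibroblast markers 0 to 0.0492. Aire and Cd207, which mark Aire-expressing cells and Langerhans cells, had no UMI in any mDC. Proximal tubule markers were at 11.7, 6.69, 3.87, 11.3 and 1.53 per 10000, and in cDC2 at 6.16, 12.5, 5.40, 17.0 and 1.83, so that CKD 2 was lowest in both gates and CKD 1 was above AKI 2 and CKD 2 in both. The levels of these markers moved with the library, and their part in the results was not tested.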

How the data were processed

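The authors digested whole kidneys, made 10x Genomics 3′ libraries and sequenced them on a NovaSeq, and the study's methods and the submitters' processing notes name Cell Ranger 7.2.0 with STAR and GRCm39, while the headers of the AKI and CKD matrices name Cell Ranger 5.0.0 and the gene lists name mm10. The deposited matrices hold raw UMI counts of 32285 genes, with no removal of ambient RNA or doublets and no normalization by the authors, and 5 samples were grouped by their labels.

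Cells were gated as the report states, UMI counts were summed per library and gate, and summed counts were tested with edgeR 4.0.16 (TMM, filterByExpr, quasi-likelihood test, Benjamini-Hochberg adjustment, threshold 0.05) in R 4.3.3; DESeq2 1.42.0 was an alternative. CKD was compared with AKI over 2 libraries each, and mDC with cDC2 and cDC1 within the 4 libraries that held at least 10 cells of each gate, so control entered no test. The test code was checked on simulated data. Shares have exact 95% binomial intervals. To compare detection, cells were thinned to 3000 UMIs and shallower cells left out (10 mDC). T lymphocytes had at least 2 UMIs of Cd3e, Cd3d and Cd3g together and at most 1 of H2-Aa and of the C1q genes. Library totals ran from 90028670 to 121316769 UMIs.

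The named genes were the 10 largest called increases and decreases per comparison with the same direction in every library, up to 6 called members of each gene list by adjusted p, up to 6 members by level, and the gate genes; others are said to be chosen after their values were seen. The gate, the gene lists and this rule were chosen with earlier results of these data known. Alternatives were another normalization, DESeq2, no filter, other Fscn1 limits, another mitochondrial limit, thinning, leaving out cells or libraries, and the replicate block.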

Additional observations from a re-analysis of the deposited data

How the results depend on the processing

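The direction of every value checked for mDC against cDC2 (121 genes) and cDC1 (120 genes) held under every alternative that tested the gene. Only named genes that passed the main test were checked, so those that missed it are not covered. Of the checked values 83 and 84 lost their call under some alternative while 1335 and 1262 kept it. Against cDC2 the 1858 calls became 1226 with cells thinned to 3000 UMIs (1002 of them among the 1858), and 1047 to 2220 with 1 library left out. Against cDC1 the 1872 calls became 1223 with DESeq2, 1178 without cells with markers of other types and 697 with thinning (1222, 1038 and 598 of them among the 1872), and 1120 to 2112 with 1 library left out. Thinning leaves fewer genes to test (3162 and 1661). Leaving out control changes nothing, since it entered no test.

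The CKD against AKI count of 0 was 7 with DESeq2, 164 with no filter on low counts, 5 without cells with markers of other types, 3 with thinned cells, 1 without cells rich in tubule or macrophage genes (a choice made after seeing the data), and 0 to 296 with 1 library left out; the cause was not tested. DESeq2 called Fabp5 and Hist1h2ap higher in CKD and Cenpf, Ube2c, Col4a2, Clu and C3 lower, thinning called Fabp5 and S100a4 higher and Clu lower, and without cells with markers of other types Hist1h2ap was higher and Spp1, Apoe, Clu and Myof lower. Cenpf and Ube2c are cell-cycle genes. Together with Mki67 and Top2a they had 142 UMIs in 1 cell of AKI 1 and 179 in 1 cell of AKI 2. Every other AKI mDC held at most 6, and the part of these cells in the calls was not tested. Of the 14 genes named for this comparison, no value changed direction, and 53 of their values under alternatives passed the threshold. Genes such as Fabp5, Hist1h2ap, Clu, C3 and S100a4 were chosen after their values were seen, and alternatives had already called them. Their agreement under the alternatives therefore does not test how well they hold. With the replicate number as a block, edgeR called 0 genes. The labels' replicate numbers do not say that AKI 1 and CKD 1 share a batch, and their deviations from the group means correlated at r = 0.212 over 4419 genes, with only 2 pairs.

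The difference of 0.226 percentage points in the share of kept cells became 0.144 when cells with markers of other types were left out of the mDC alone and not of the kept cells, so that the ratio was filtered on one side. The groups then overlapped, with CKD 1 at 0.104% below AKI 2 at 0.129% (pooled SD 0.134). The difference became 0.310 when such cells were left out of both, and 0.291 when cells rich in tubule or macrophage genes were left out of both (choices made after seeing the data). It lay between 0.173 and 0.278 with 1 library left out. The difference of 6.70 points in the share of dendritic cells became 9.52 with thinned cells and lay between 4.64 and 8.76 with 1 library left out. All these differences kept their sign. Depth limits genes near 1 UMI per 10000, since AKI 1 held 203185 mDC UMIs and control 11979.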

Other observations

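Several metabolic and housekeeping groups were counted in the same way. Over all genes tested, 12.6% were higher and 13% lower than in cDC2, and 17.7% higher and 13.9% lower than in cDC1. Of 12 genes of cholesterol synthesis and efflux tested against cDC2, 4 were higher and 0 lower (median log2 fold change 0.33), and of 10 tested against cDC1, 4 were higher and 1 lower (median 0.77). Idi1, an isomerase of the isoprenoid pathway, was at 1.67, 0.492, 1.38, 1.40 and 0.884 UMIs per 10000 in control, AKI 1, AKI 2, CKD 1 and CKD 2 and lay above every cDC2 value (0.164 to 0.262), by 2.36 ± 0.33 (edgeR adjusted p = 0.00057). The cholesterol exporter Abcg1 was higher than in cDC2 in all 4 injured libraries (1.33 ± 0.23). Of 15 glycolysis genes 1 was higher and 7 were lower than in cDC2 (median −0.88), and against cDC1 1 of 13 was higher and 5 lower (median −0.39). The gene that was higher, Pfkfb3, sets the level of an activator of glycolysis, at 0.835, 0.738, 1.82, 1.19 and 1.31 per 10000 against 0.0632 to 0.376 in cDC2 (3.19 ± 0.20, edgeR adjusted p = 5.7e-06). Ldha (−1.39 ± 0.21) and Eno1 (−1.69 ± 0.19), enzymes of the pathway itself, were lower. Of 22 nuclear genes of the respiratory chain, 0 were higher and 2 lower than in cDC2 (median −0.18), and 1 was higher and 2 lower than in cDC1 (median −0.06).

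Few mDC showed cell-cycle RNA. At least 10 UMIs of Mki67, Top2a, Ube2c and Cenpf together were found in 0, 1, 1, 4 and 1 cells of the 5 libraries. Of 14 cell-cycle genes tested, 2 were higher and 3 lower than in cDC2 and 0 higher and 5 lower than in cDC1 (medians 0.03 and −0.63). Over all genes 12.6% were higher and 13% lower than in cDC2, near the cell-cycle counts, and 17.7% and 13.9% than in cDC1. Of 17 genes that respond to tissue dissociation and stress, 5 were higher and 0 lower than in cDC2, and 5 higher and 1 lower than in cDC1 (medians 0.50 and 0.41). Among them Klf6 was at 21.7, 10.5, 13.9, 16.8 and 16.9 per 10000 (1.40 ± 0.19 against cDC2) and Hspa1a at 10.9, 12.8, 19.5, 34.3 and 18.1 (1.09 ± 0.27). The part of the digestion in these values was not tested.

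The partners that mature dendritic cells meet were also measured in the same libraries. Ccl21a, a Ccr7 ligand of lymphatic endothelium, had 1391, 5, 4, 1802 and 1015 UMIs among all kept cells, of which the 5 richest cells held 95.1%, 100%, 100%, 93.2% and 98.3%, so that a handful of cells decides its presence. Ccl19, the other ligand, had 98, 233, 242, 348 and 358 UMIs, and the mDC held 0, 0, 1, 2 and 1 of them. In T lymphocytes Ccr4, the receptor of Ccl17 and Ccl22, was at 0.0556, 0.0442, 0.0356, 0.0324 and 0.0453 per 10000, Ctla4 at 0.604, 2.24, 2.81, 1.80 and 2.45, and Foxp3 of regulatory T lymphocytes at 0.0472, 0.193, 0.299, 0.0767 and 0.135. Tnfrsf4 (OX40), the receptor of Tnfsf4 on T lymphocytes, was found in the mDC too, at 4.17, 0.295, 1.46, 1.34 and 1.23 per 10000, above every cDC2 value (0 to 0.0317) by 5.48 ± 0.31 (edgeR adjusted p = 3.0e-06). It was detected in 22.7% of thinned mDC, 0.659% of thinned cDC2 and 26.5% of thinned T lymphocytes (50.3%, 2.76% and 31.1% unthinned), while the mDC held at most 1 UMI of the Cd3 genes by their rule.

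The macrophage list gave 1 gene higher (Cd81) and 1 lower (Csf1r) than in cDC2 of 3 tested, and both were higher than in cDC1 (2.22 ± 0.22 and 1.95 ± 0.66, edgeR adjusted p = 1.4e-05 and 0.040), so that in the 4 injured libraries Csf1r lay above cDC1 and below cDC2. Cd81 was at 1.14 to 3.94 per 10000 in the mDC of the injured libraries against 0.187 to 0.658 in cDC2 (2.37 ± 0.27, edgeR adjusted p = 0.00019). Adgre1 and Mertk, which define kidney macrophages, stayed at or below 0.0520 and 0.0184 per 10000 in mDC. Monocyte markers were lower than in cDC2 for 2 of 2 tested, and Ighm was the B lymphocyte marker that was lower (−1.49 ± 0.25).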
